A study of Mus musculus with 36 samples.

Results

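The genes described here encode the contractile apparatus and the actin cytoskeleton, and they were followed in mouse embryonic fibroblasts (MEFs) with and without the kinase PKBa, the product of Akt1. A list of 37 gene symbols was matched to the gene symbols of the array annotation. Of these, 36 had a probe set naming that gene alone, out of 12393 such genes on the array. The symbol without one was Myh10. Each gene was read on its brightest such probe set, and 32 of the 36 were among the 7436 genes bright enough to be tested. Acta1, Actc1, Actg2 and Cnn1 were below that limit and are described by their values. The limit was set on the mean over arrays of log2(signal + 32) and corresponds to a signal of 123, so a gene bright on some arrays only, such as Actg2 or Cnn1, can fall below it.

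RNA came from PKBa-/- MEFs and from wild-type MEFs in a time course labelled 0, 2, 6, 24 and 48, with no unit of time in the labels. Each genotype had 18 Affymetrix arrays, 4 at each time except time 2, which had 2. The cells were derived from embryos of crosses between PKBa heterozygotes at 13.5 days, with head and visceral organs removed, and were used at passages 15 to 20 in DMEM with 10% foetal calf serum. The series title calls the cells DMEM treated; the protocol also describes an adipogenic hormone mixture, and the labels do not say that these arrays received it. The labels do not say how many embryos or lines stood behind a genotype, nor whether replicates were separate cultures, so cell line and genotype cannot be told apart and p-values measure only the spread between these arrays.

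Actin filaments are assembled from actin monomers with the help of profilin and the Arp2/3 complex, are severed by cofilin and are capped at their ends by capping protein. In fibroblasts the filaments are bundled by alpha-actinin and coated by tropomyosins, calponins and caldesmon, and nonmuscle myosin II pulls on them once the kinase encoded by Mylk has phosphorylated its regulatory light chain. The bundles end at focal adhesions, where talin, vinculin, zyxin and related LIM proteins link them to integrins. Many of these genes, including the smooth-muscle actins and transgelin that mark contractile fibroblasts, are known targets of serum response factor (SRF), which binds the CArG box and works with MRTF cofactors that are held back by actin monomers.

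Akt1 itself had a signal of 43.8 at the lowest, 75.1 at the median and 103 at the highest PKBa-/- array, against 843, 1075 and 1395 on wild-type arrays, so the arrays matched their labels. Replicates 1 and 2 of a group resembled each other more (correlation 0.982 to 0.997) than arrays of different pairs in the same group (0.942 to 0.989), and likewise replicates 3 and 4, so each pair was averaged before testing and a group counted as 2 replicates (1 at time 2). Array medians ran from 134 to 145. All 11 fibroblast markers had a mean signal above the limit in both genotypes, and none of 11 skeletal and heart muscle markers had in either. Fibroblast markers also differed between genotypes. Mean signals in PKBa-/- and wild-type cells were 767 and 7116 for Dcn, 4137 and 1012 for Thy1 and 921 and 410 for Pdgfrb. Only Dcn and Fn1 had a lower mean in PKBa-/- cells. The lowest arrays of Thy1 (104) and Pdgfrb (77.3) were below the limit. Of 7 smooth-muscle markers, 4 had a mean signal above the limit in PKBa-/- cells and 5 in wild-type cells, with sums of 6555 to 16295 on PKBa-/- arrays and 3163 to 15138 on wild-type arrays. Acta2, Tagln, Cnn1 and Smtn of these are genes described here; of the others Des was above it in both (mean signal 163 in PKBa-/- cells and 259 in wild-type cells) and Myh11 and Lmod1 were below it in both. Mesothelium markers moved with genotype: 0 of 8 were above the limit in PKBa-/- cells and 5 of 8 in wild-type cells, and their summed signal was 365 to 489 on PKBa-/- arrays and 6479 to 10593 on wild-type arrays. The summed adipocyte markers (1205 to 2281 on PKBa-/- arrays and 2679 to 5926 on wild-type arrays) and endothelium markers (341 to 568 on PKBa-/- arrays and 571 to 1752 on wild-type arrays) also differed without overlap. Of these lists 3 of 7 adipocyte markers (Lpl, Cebpa and Retn) and 1 of 6 endothelium markers (Kdr) were above the limit in both genotypes. Mean signals in PKBa-/- and wild-type cells were 924 and 3376 for Lpl and 234 and 924 for Kdr. Cebpa (272 and 200) and Retn (233 and 207) went the other way from Lpl, so the adipocyte sums differed mainly through Lpl. In wild-type cells the endothelium sum was 1312 to 1752 at time 48 and 571 to 627 at time 0. In bulk RNA such as this, fewer cells of a type and less RNA per cell cannot be told apart.

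Many of the contractile and cytoskeletal genes fell after time 0 in both genotypes. At time 6, 11 of the 32 tested genes were lower than at time 0 in PKBa-/- cells and 18 of 32 in wild-type cells (limma on log2 signal, two-sided, Benjamini-Hochberg adjusted p under 0.05), and none was higher in either. Among all tested genes 9.78% were lower and 8.59% higher in PKBa-/- cells at that time, and 7.69% lower and 4.22% higher in wild-type cells. At time 24 the counts were 7 genes lower in PKBa-/- cells and 16 in wild-type cells, against 3.35% and 3.46% of all tested genes, while 2.8% and 2.21% of all genes were higher. At time 48 they were 11 and 12, against 4.38% and 3.89%, again with none higher, where 3.07% and 2.12% of all genes were. The median change of the 32 genes on the log2 scale was -0.39 at time 6, -0.38 at time 24 and -0.41 at time 48 in PKBa-/- cells, and -0.54, -0.58 and -0.43 in wild-type cells, while the median over all tested genes lay between -0.018 and 0.014. All changes from time 0 within a genotype share the time 0 arrays. The ratio of 3' to 5' probe sets of Actb, a sign of RNA quality, was 1.18 to 1.39 at time 24 and 1.19 to 1.41 at time 0 in PKBa-/- cells. The wild-type ratio was 1.31 or more at time 24 and 1.24 or less at time 0, without overlap. At time 6 the ratio was 1.21 to 1.43 in PKBa-/- cells and 1.24 to 1.33 in wild-type cells. At time 48 it was 1.32 to 1.56 in PKBa-/- cells and 1.17 to 1.58 in wild-type cells. The part of this ratio in the falls was not tested. Treating each array as a replicate gave 20, 21 and 23 genes lower in PKBa-/- cells and 26, 27 and 27 in wild-type cells at times 6, 24 and 48, against 20.5%, 14.2% and 15% of all tested genes in PKBa-/- cells and 20.7%, 15% and 17.6% in wild-type cells.

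**Figure D1:**
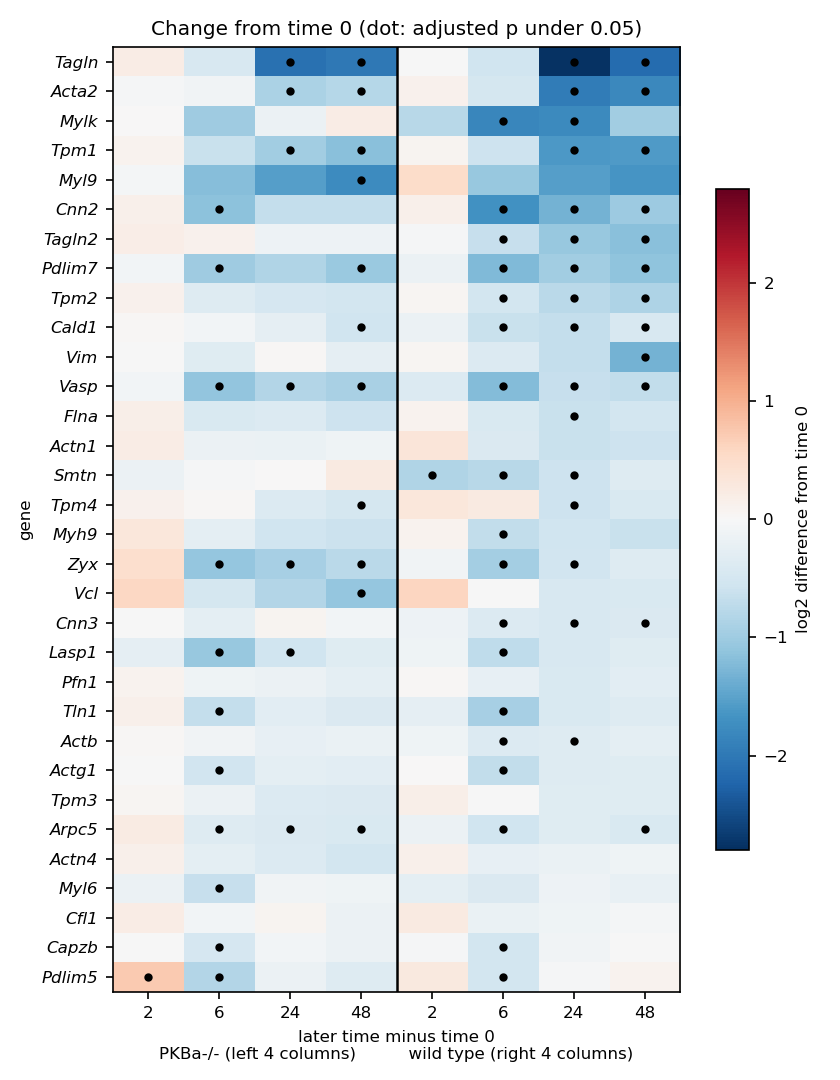
Change from time 0 of the 32 tested genes (rows, ordered by the wild-type change at time 24) at times 2, 6, 24 and 48 (columns), for PKBa-/- cells on the left and wild-type cells on the right; colour gives the log2 difference and a dot an adjusted p under 0.05. Nearly all dots are on blue (lower) cells at times 6 to 48, and the darkest is Tagln in wild-type cells at time 24 (-2.77).

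At time 2 few genes passed. Each genotype had 1 averaged pair there, so its spread was taken to be that of the other groups, and the values below have no replicate check of their own. Pdlim5 was the only gene called higher in PKBa-/- cells, with a log2 difference of 0.74 ± 0.17 (SE, adjusted p = 0.0372), and Smtn the only one called lower in wild-type cells, with -0.85 ± 0.18 (SE, adjusted p = 0.0287), where 2.15% of all tested genes were called higher and 1.24% lower in PKBa-/- cells, and 1.3% higher and 1.43% lower in wild-type cells. Time 2 had replicates 1 and 2 alone. Within these replicates 25 of 32 genes had a positive difference in PKBa-/- cells and 6 of 32 in wild-type cells, whereas against all time 0 arrays the counts were 21 and 17. The median difference within these replicates was 0.076 for the 32 genes and -0.020 for all tested genes in PKBa-/- cells. In wild-type cells it was -0.11 for the 32 genes and -0.054 for all tested genes. No share of positive differences was taken over all tested genes. The Pdlim5 call was lost without wild-type time 48 replicate 3 (adjusted p = 0.0561) and on the mean of its probe sets, and the Smtn call without wild-type time 2 replicate 1 (adjusted p = 0.0585). Quantile normalization ended both calls.

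The time of the lowest group mean was counted without a test. It was time 6 for 12 of 32 genes in PKBa-/- cells and 16 in wild-type cells, time 24 for 4 and 11, and time 48 for 15 and 4. No share of all tested genes was taken. As no gene passed between times 24 and 48, these counts are not read as a difference in timing between genotypes. Zyx, Vasp and Arpc5 were called lower than at time 0 at all 3 of times 6, 24 and 48 in PKBa-/- cells. In wild-type cells the genes called lower at all 3 were Cald1, Cnn2, Cnn3, Pdlim7, Tagln2, Tpm2 and Vasp. In all, 18 genes were called lower at 1 or more of these times in PKBa-/- cells and 24 in wild-type cells, of which 15 were shared. No share of all tested genes was taken for the 3 times together. The 5 genes called in neither were Actn1, Actn4, Cfl1, Pfn1 and Tpm3. Their changes in wild-type cells at time 24 were -0.62, -0.19, -0.12, -0.43 and -0.34, so a missing call was not an absence of change. Between times 24 and 48 no gene passed in either genotype; 1 in PKBa-/- cells and 3 in wild-type cells had an unadjusted p under 0.05, and the fit with arrays as replicates called 1 and 2. Of all tested genes 0.134% passed in PKBa-/- cells and 0% in wild-type cells, and 7.85% and 1.71% with arrays as replicates.

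The promoters of 34 of the 37 listed genes were found in the RefSeq tables (mouse build GRCm38.p6; windows of 250 bases before to 50 after the annotated start). A CArG box, searched on both strands, was present for 7 of the 34 (20.6%), against 488 of 27025 genes (1.81%). Only the exact pattern CCWWWWWWGG, with W for A or T, was counted. Variants of the pattern and bases outside the window were not searched. A gene without a match, such as Acta2, Cnn1 or Tpm1, is therefore not shown to lack an SRF site. Actb, Tagln and Actg2 had no entry. The 7 were Acta1, Actc1, Actg1, Cnn2, Myl6, Myl9 and Vcl. The match describes the listed genes and was not tested for a bearing on their values. The 250 bases before the start are shown for 4 of them whose values appear below, with the CArG box in capitals. They are Myl9 (chr2:156775214-156775463, plus strand), Cnn2 (chr10:79988350-79988599, plus strand), Actg1 (chr11:120348496-120348745, minus strand) and Vcl (chr14:20929148-20929397, plus strand), each read 5′ to 3′ on the strand of its gene.
Myl9: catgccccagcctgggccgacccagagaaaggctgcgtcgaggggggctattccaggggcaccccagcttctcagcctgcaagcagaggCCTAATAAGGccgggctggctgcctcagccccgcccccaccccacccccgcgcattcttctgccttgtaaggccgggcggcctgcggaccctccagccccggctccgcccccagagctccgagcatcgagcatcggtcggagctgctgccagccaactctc
Cnn2: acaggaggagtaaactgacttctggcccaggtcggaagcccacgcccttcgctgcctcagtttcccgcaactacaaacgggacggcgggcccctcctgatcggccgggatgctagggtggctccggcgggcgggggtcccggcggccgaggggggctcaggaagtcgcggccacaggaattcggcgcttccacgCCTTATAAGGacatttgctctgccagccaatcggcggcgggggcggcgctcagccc
Actg1: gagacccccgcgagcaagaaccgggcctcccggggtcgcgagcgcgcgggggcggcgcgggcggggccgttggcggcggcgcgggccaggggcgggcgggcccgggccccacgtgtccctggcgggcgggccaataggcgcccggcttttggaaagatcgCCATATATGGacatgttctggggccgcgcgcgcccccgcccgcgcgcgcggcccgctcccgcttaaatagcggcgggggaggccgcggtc
Vcl: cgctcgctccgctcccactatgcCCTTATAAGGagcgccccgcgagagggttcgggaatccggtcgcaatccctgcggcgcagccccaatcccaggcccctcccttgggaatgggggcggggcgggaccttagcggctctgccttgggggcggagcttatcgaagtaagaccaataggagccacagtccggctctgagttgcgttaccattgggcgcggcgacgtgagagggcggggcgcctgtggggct
The box began 161 bases before the start in Myl9, 56 in Cnn2, 90 in Actg1 and 227 in Vcl.

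**Figure D2:**
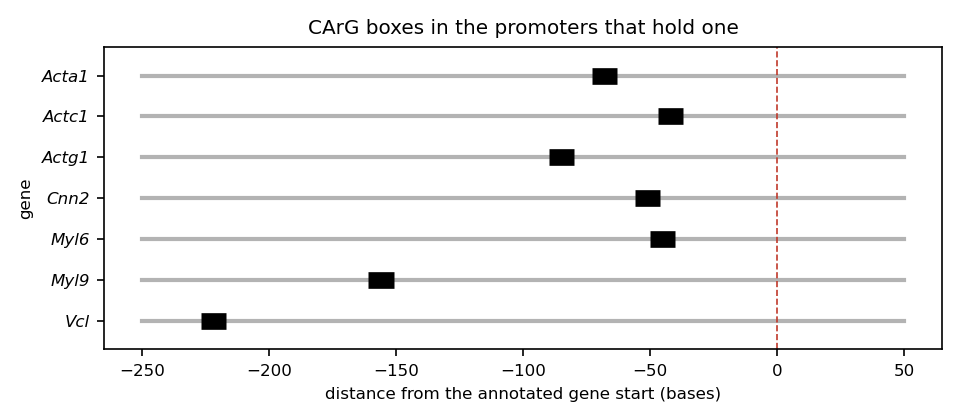
Position of the CArG box (black) in the 7 promoters that hold one, in bases from the annotated gene start (dashed line), over the 300 bases searched (grey). Each promoter holds 1 box, all of them before the start.

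Among the 3 tested actins, smooth-muscle alpha-actin (Acta2) had the largest averaged difference between genotypes. Its signal in PKBa-/- cells was 9805, 9667, 9143 and 9700.2 at time 0, 9134 and 9469.6 at time 2, 9309, 9110.1, 8767 and 8454 at time 6, 4882, 4929, 5139 and 5718 at time 24 and 5402, 5485, 5678 and 5246 at time 48. In wild-type cells it was 6896, 7255, 5616 and 5544 at time 0, 6953 and 6779.9 at time 2, 5214, 5322, 3932 and 3696 at time 6, 1563, 1778, 1554 and 1517 at time 24 and 1473, 1740.3, 2091 and 1798 at time 48. Every PKBa-/- array was above every wild-type array of its time. Of all tested genes, 23.3%, 43.2%, 22.2%, 17.1% and 22% had this at times 0, 2, 6, 24 and 48 taken singly. The reverse held for 20.3%, 31.3%, 18.4%, 16.9% and 16.8%. No share was taken for all times together. The log2 difference of Acta2 between PKBa-/- and wild-type cells averaged 1.06 ± 0.079 (SE, adjusted p = 3.35e-07), a 2.09-fold higher level, and was 0.61 at time 0, 1.67 at time 24 and 1.61 at time 48. From time 0 to time 24 the change was -0.89 ± 0.16 (SE, adjusted p = 0.00656) in PKBa-/- cells and -1.95 ± 0.16 (SE, adjusted p = 5.06e-05) in wild-type cells.

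The change of Acta2 over the course differed between genotypes in an F test over the 4 later times (adjusted p = 0.0429), the only one of the 32 genes to pass, against 1.75% of all tested genes. The difference of the changes was 1.06 ± 0.23 (SE) at time 24, with an adjusted p of 0.0624. It was 1.08 in replicates 1 and 2 and 1.05 in replicates 3 and 4. The F test call was lost after quantile normalization and without any one of 4 wild-type arrays (time 6 replicate 3, time 24 replicate 1, time 48 replicate 2 or time 48 replicate 4).

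Enteric smooth-muscle gamma-actin (Actg2) was dim overall but had its own time course. Its signal in PKBa-/- cells was 448, 482, 411 and 439 at time 0, 553 and 571 at time 2, 319, 296, 280.0 and 257 at time 6, 79.4, 82.3, 114 and 89.8 at time 24 and 71.2, 72.6, 78.2 and 75.5 at time 48. In wild-type cells it ran from 37.8 to 70.4 over all times, below the signal limit of the test. All PKBa-/- arrays were above all wild-type arrays, the closest being at time 48. With no limit on signal, in a fit over all 12393 genes, Actg2 was higher in PKBa-/- cells at time 0 by 2.25 ± 0.10 (SE, adjusted p = 1.83e-07) and fell to time 24 in PKBa-/- cells with a log2 difference of -1.96 ± 0.10 (SE, adjusted p = 1.3e-05); 10.9% of genes were called in the first comparison and 4.12% in the second. These log2 values are of signal plus 32, which understates differences of dim genes.

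The cytoplasmic actins, which make up most of the filaments of a fibroblast, had smaller averaged genotype differences than Acta2, and Actg1 fell at time 6. Actg1 had 6490.2, 6689, 6603 and 6442 at time 6 in PKBa-/- cells, against 9365, 9281, 10256 and 9455 at time 0. In wild-type cells it had 5362, 5227, 5171 and 5196 at time 6 and 8879, 8874, 8092 and 8239 at time 0. The time 6 arrays did not overlap those of time 0 in either genotype, and the change was -0.55 ± 0.11 (SE, adjusted p = 0.00629) in PKBa-/- cells and -0.70 ± 0.11 (SE, adjusted p = 0.00251) in wild-type cells. Of all tested genes, 22.8% in PKBa-/- cells and 20.1% in wild-type cells had time 6 arrays wholly below those of time 0. Across times Actg1 was 0.23 higher in PKBa-/- cells (adjusted p = 0.00521), which did not pass with 1 mean per pair over times (adjusted p = 0.217). Actb ran from 9658 to 13454 in PKBa-/- cells and from 10499 to 14805 in wild-type cells, with an averaged difference of -0.0085 ± 0.046 (SE, adjusted p = 0.897). Its fall in wild-type cells at time 6 (-0.39) and time 24 (-0.36) turned to 0.053 and 0.010 when its probe sets were averaged. The skeletal and cardiac alpha-actins Acta1 and Actc1 stayed dim, at 21.1 to 51.0 and 37.8 to 66.6 in PKBa-/- cells and 19.1 to 29.4 and 34.9 to 54.9 in wild-type cells.

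**Figure D3:**
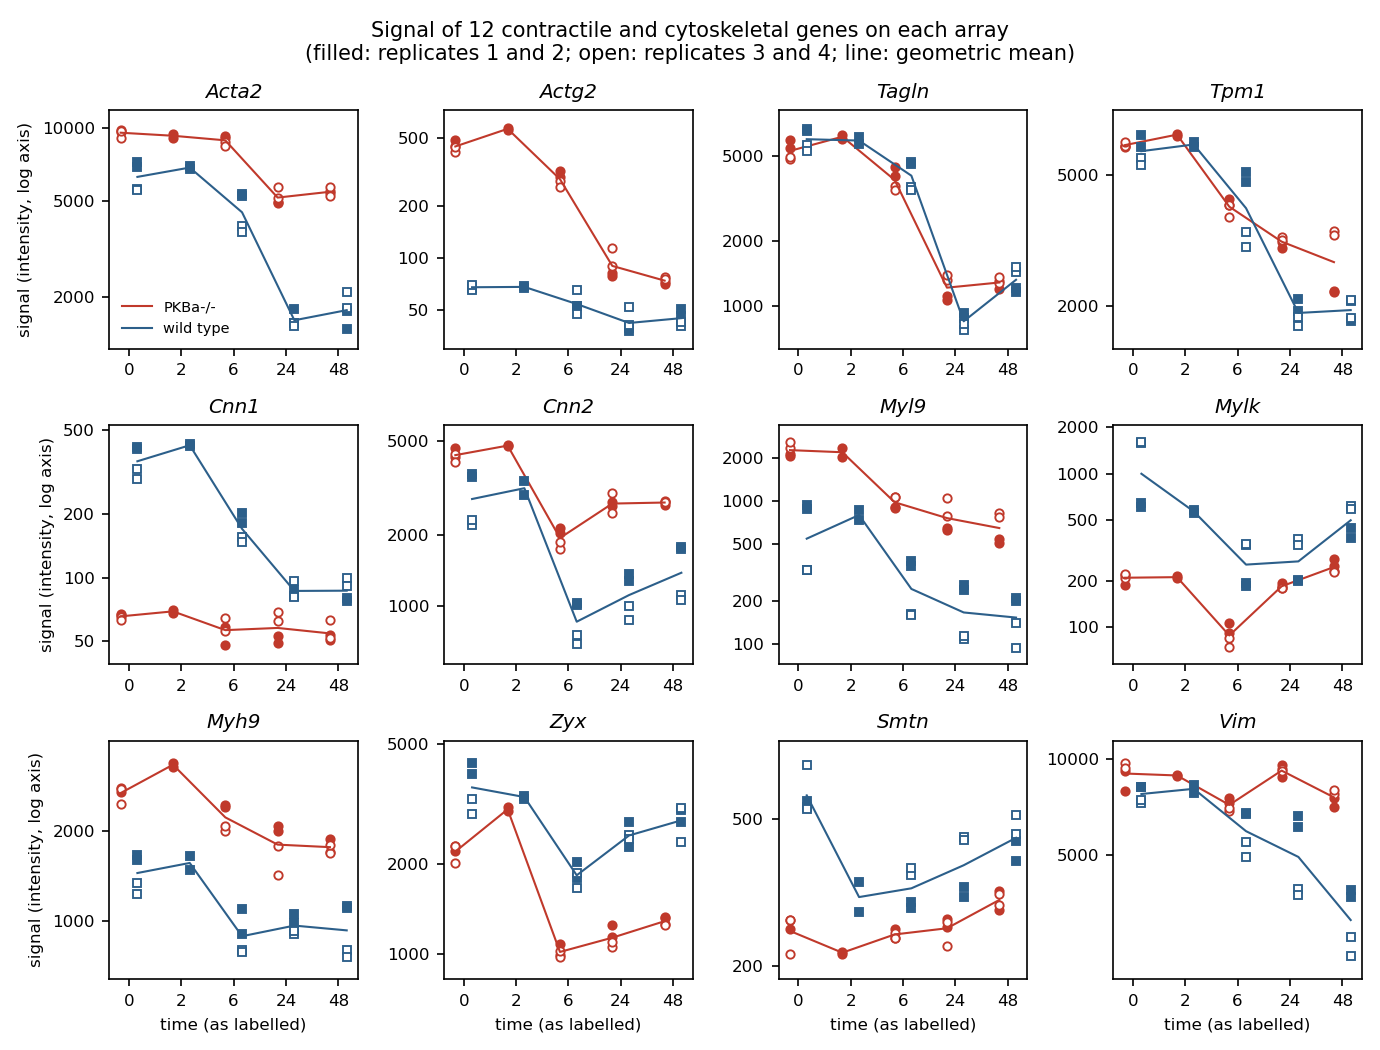
Signal (log axis) of 12 genes on every array against labelled time, with PKBa-/- arrays as red circles left of wild-type arrays as blue squares; replicates 1 and 2 are filled, replicates 3 and 4 open, and lines join geometric means. Acta2, Cnn2, Myl9 and Myh9 run above wild type in PKBa-/- cells, Mylk, Zyx and Smtn run below it, and the fall of Actg2 is larger in PKBa-/- cells and that of Cnn1 is larger in wild-type cells.

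Among the proteins that coat or crosslink filaments, transgelin (Tagln), a calponin-related marker of contractile cells, had the largest fall of the 32 genes. Its signal in PKBa-/- cells was 5432, 5915, 4826 and 4946 at time 0, 5998 and 6257 at time 2, 4022, 4424, 3598 and 3455 at time 6, 1114, 1071, 1316 and 1398 at time 24 and 1314, 1198, 1282 and 1358 at time 48. Wild-type cells read 6636, 6513, 5582 and 5247 at time 0, 6088 and 5677 at time 2, 4680.4, 4562, 3594 and 3458 at time 6, 877, 929.7, 775 and 824 at time 24 and 1165, 1209.7, 1440.1 and 1517 at time 48. Most of the fall lay between times 6 and 24 in both genotypes, and no array of time 24 or 48 reached those of times 0 to 6. At time 24 the change was -2.08 ± 0.17 (SE, adjusted p = 3.39e-05) in PKBa-/- cells and -2.77 ± 0.17 (SE, adjusted p = 1.15e-05) in wild-type cells. The averaged genotype difference was 0.055 ± 0.085 (SE, adjusted p = 0.629), so this gene did not pass between genotypes although Acta2 did.

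Tpm1, a tropomyosin that lies along the filament, fell in both genotypes as well. It had 3118, 2998, 3244 and 3171 at time 24 in PKBa-/- cells, against 6072, 6097, 6098 and 6279 at time 0. In wild-type cells it had 2102, 1935, 1744 and 1855 at time 24 and 6569, 6053, 5628 and 5359 at time 0. Both genotypes were lower at time 24 with no overlap, with log2 differences of -0.96 ± 0.20 (SE, adjusted p = 0.0141) in PKBa-/- cells and -1.61 ± 0.20 (SE, adjusted p = 0.000943) in wild-type cells. Of all tested genes, 13.9% in PKBa-/- cells and 14.8% in wild-type cells were lower at time 24 without overlap. At time 24 Tpm1 was 0.71 higher in PKBa-/- than in wild-type cells (adjusted p = 0.0254). At time 48 its PKBa-/- replicates 1 and 2 (2226 and 2201) were below replicates 3 and 4 (3370 and 3290). The averaged difference (0.27) did not pass with quantile normalization (adjusted p = 0.0853), on the mean of its probe sets (0.149) or with 1 mean per pair over times (0.157). Of the other tropomyosins, Tpm2 fell in wild-type cells at times 6, 24 and 48 (-0.87 at time 48; the time 6 call was lost without any one of 20 arrays), Tpm4 fell at time 48 in PKBa-/- cells (-0.48) and at time 24 in wild-type cells (-0.59), and Tpm3 did not pass at any time.

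The 3 calponins, which bind filaments and in smooth muscle restrain myosin, went different ways. Cnn1 is the smooth-muscle form. Its signal in PKBa-/- cells ran from 48.0 to 70.7 over all times, below the limit of the test. The wild-type signal was 412, 403, 325 and 292 at time 0, 417 and 426 at time 2, 201, 180.4, 156 and 147 at time 6, 81.6, 87.8, 96.4 and 81.2 at time 24 and 79.8, 77.7, 99.9 and 91.5 at time 48. The genotypes did not overlap at any time. In the fit with no limit on signal, Cnn1 was lower in PKBa-/- cells at time 0 (-1.98 ± 0.14 SE, adjusted p = 5.01e-06) and fell to time 24 in wild-type cells with a log2 difference of -1.70 ± 0.14 (SE, adjusted p = 0.000208); 3.67% of genes were called in that comparison over time.

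Cnn2, the widely expressed form, was higher in PKBa-/- cells and dipped at time 6. It had 4694, 4263, 4413 and 4096 in PKBa-/- cells at time 0, 2042, 2141, 1738 and 1854 at time 6 and 2657, 2756, 2465 and 3005 at time 24. Wild-type cells had 3520.0, 3624, 2209.7 and 2301 at time 0, 1029.7, 1006, 748 and 684 at time 6 and 1275, 1362, 994 and 872 at time 24. In both genotypes time 6 was below every array of time 0, with log2 differences of -1.16 in PKBa-/- cells (adjusted p = 0.00874) and -1.70 in wild-type cells (adjusted p = 0.00158). The averaged genotype difference was 0.92 ± 0.13 (SE, adjusted p = 7.48e-05), with 0.72 in replicates 1 and 2 and 1.26 in replicates 3 and 4. Averaged differences of replicates 3 and 4, here and below, leave out time 2, which these replicates lack. Cnn3 was also higher in PKBa-/- cells (0.30 ± 0.046 SE, adjusted p = 0.000175), most at time 24 (0.62), and fell in wild-type cells at times 6, 24 and 48 with log2 differences of -0.39, -0.45 and -0.39, the last call resting on wild-type time 48 replicate 2 (adjusted p = 0.0717 without it). The averaged Cnn3 difference did not pass with 1 mean per pair over times (adjusted p = 0.0978).

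Caldesmon (Cald1), which blocks myosin binding to tropomyosin-coated filaments, was higher in PKBa-/- cells by 0.51 ± 0.055 (SE, adjusted p = 1.14e-05), with the genotypes furthest apart at time 6 (0.84). Smoothelin (Smtn), a filament-binding protein of contractile smooth muscle, was lower in PKBa-/- cells. Its signal was 266, 251, 266 and 215 in PKBa-/- cells and 539, 559, 533 and 699 in wild-type cells at time 0. It ran from 215 to 319 over all times in PKBa-/- cells and from 279 to 699 in wild-type cells. The difference was -1.12 ± 0.15 (SE, adjusted p = 0.000244) at time 0 and -0.59 ± 0.073 (SE, adjusted p = 3.1e-05) when averaged. Tagln2, the transgelin of nonmuscle cells, was called lower in PKBa-/- cells at time 0 alone (-0.77 ± 0.17 SE, adjusted p = 0.0104). It had 1078, 1127, 1019 and 874 there, against 1812, 2004, 1637 and 1615 in wild-type cells. At time 2 it had 1163 and 1178 in PKBa-/- cells and 1751 and 1670 in wild-type cells, a difference that was not called. At time 48 its log2 difference from time 0 was -0.15 in PKBa-/- cells (adjusted p = 0.741) and -1.16 in wild-type cells (adjusted p = 0.00298). The difference between these values, 1.02, did not pass (adjusted p = 0.0829; 0.000785 with the pair within genotype as a replicate block). The crosslinkers were steadier: filamin (Flna) was 0.35 higher in PKBa-/- cells (adjusted p = 0.00412), and the alpha-actinins Actn1 (0.25, adjusted p = 0.211) and Actn4 (-0.16, adjusted p = 0.101) did not pass. The Flna difference did not pass with 1 mean per pair over times (adjusted p = 0.144).

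The motor itself showed opposite genotype differences between the light chain and its kinase. Myl9, the regulatory light chain, had a signal in PKBa-/- cells of 2137, 2067, 2354 and 2620.2 at time 0, 909.6, 896, 1072 and 1081 at time 6, 651, 634, 785 and 1048 at time 24 and 512, 542, 825 and 781 at time 48. In wild-type cells it was 879, 936, 332 and 329 at time 0, 384, 352, 163 and 160.0 at time 6, 258, 241, 109 and 113 at time 24 and 210.2, 200.09, 139.7 and 94.3 at time 48. All PKBa-/- arrays were above the wild-type arrays of their time, but the wild-type pairs were themselves apart, with replicates 3 and 4 lower than replicates 1 and 2 at each of these times. The averaged difference of 1.83 ± 0.23 (SE, adjusted p = 3.45e-05) was accordingly 1.27 in replicates 1 and 2 and 2.63 in replicates 3 and 4. Myl9 fell between times 0 and 48 in PKBa-/- cells, with a log2 difference of -1.76 (adjusted p = 0.0377), and the wild-type change of -1.64 did not pass (adjusted p = 0.0589).

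Mylk, the myosin light chain kinase, was lower in PKBa-/- cells. It had 189, 220.4, 210.5 and 223 in PKBa-/- cells at time 0, 107, 91.3, 74.1 and 84.8 at time 6, 185, 195, 179.6 and 179.6 at time 24 and 250.2, 276, 233 and 229.8 at time 48. Wild-type cells had 648, 603, 1583 and 1604 at time 0, 185, 195, 344 and 346 at time 6, 199.99, 204, 374 and 342 at time 24 and 439.8, 383, 613 and 591 at time 48. The genotypes did not overlap at these times, and here wild-type replicates 3 and 4 were the higher pair. The averaged difference was -1.21 ± 0.18 (SE, adjusted p = 0.000162), being -0.84 in replicates 1 and 2 and -1.65 in replicates 3 and 4, and it passed singly at time 0 (-2.09) and time 6 (-1.26, adjusted p = 0.037) but not at time 24 (-0.48, adjusted p = 0.424). The time 6 call did not hold with a larger constant added to the signal before taking logs (adjusted p = 0.099), with no limit on signal (0.0664) or on the mean of the probe sets (0.0815). From time 0 to time 6 the log2 difference was -1.005 ± 0.37 (SE, adjusted p = 0.083) in PKBa-/- cells and -1.84 ± 0.37 (SE, adjusted p = 0.00859) in wild-type cells.

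Myh9, the heavy chain of nonmuscle myosin IIA, was higher in PKBa-/- cells with a log2 difference of 1.00 ± 0.092 (SE, adjusted p = 2.34e-06), or 2.00-fold. It had 2798, 2716, 2761 and 2474 in PKBa-/- cells and 1667, 1605, 1232 and 1343 in wild-type cells at time 0, and 1706, 1885, 1695 and 1801 in PKBa-/- cells and 1122, 1109.7, 800.4 and 760.2 in wild-type cells at time 48. It was the only one of the 32 genes called higher at each of the 5 times, by 0.87 at the least (time 0) and 1.29 at the most (time 6). The essential light chain Myl6 was 0.25 higher on average (adjusted p = 0.0396), on a probe set with a mean signal of 266. The call was lost without any one of 4 arrays (wild-type time 0 replicate 2, time 6 replicate 1 or time 48 replicate 1, or PKBa-/- time 24 replicate 4, with adjusted p up to 0.062). Brighter probe sets shared by Myl6, Gm8894 and Gm5526, at 4606 and 4488, had averaged differences of 0.047 and 0.020. From time 0 to time 24 these shared probe sets changed by -0.31 and -0.41 in PKBa-/- cells and by -0.57 and -0.49 in wild-type cells. The probe set of Myl6 alone changed by -0.096 and -0.14. At time 6, where Myl6 was called lower in PKBa-/- cells, its own probe set changed by -0.64 there and by -0.40 in wild-type cells. The shared ones changed by -0.12 and -0.19 in PKBa-/- cells and by -0.25 and -0.10 in wild-type cells.

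Genes of focal adhesions and LIM-domain proteins fell together and early. At time 6, 6 of the 7 (Zyx, Vasp, Lasp1, Pdlim5, Pdlim7 and Tln1) were lower than at time 0 in PKBa-/- cells and the same 6 in wild-type cells, with medians of -0.99 in PKBa-/- cells and -0.92 in wild-type cells, where 9.78% and 7.69% of all tested genes were lower. At time 48, 4 of 7 were lower in PKBa-/- cells and 2 of 7 in wild-type cells, against 4.38% and 3.89%. A dimmer Pdlim7 probe set (mean signal 387) changed by -0.28 in PKBa-/- cells and 0.0048 in wild-type cells at time 6, against -0.99 and -1.24 on the one used. Lasp1 probe sets with mean signals of 259 and 208 rose by 0.26 and 0.22 in wild-type cells at time 6, while all other Lasp1 probe sets fell. Vasp, which promotes filament growth at adhesions, had 523, 491, 448 and 449 at time 6 in PKBa-/- cells, against 1047, 1005, 1149 and 1060.5 at time 0. In wild-type cells it had 327, 333, 342 and 338 at time 6 and 933, 902, 699 and 762 at time 0. The arrays of the 2 times did not overlap, and the changes were -1.11 ± 0.14 (SE, adjusted p = 0.000388) in PKBa-/- cells and -1.21 ± 0.14 (SE, adjusted p = 0.000309) in wild-type cells. Talin (Tln1), which couples integrins to actin, changed by -0.68 ± 0.12 (SE, adjusted p = 0.0024) in PKBa-/- cells and -0.92 ± 0.12 (SE, adjusted p = 0.000538) in wild-type cells at time 6. Pdlim5 fell at that time with log2 differences of -0.81 in PKBa-/- cells and -0.51 in wild-type cells, but neither call held on the mean of its probe sets (adjusted p = 0.0749 in PKBa-/- cells and 0.274 in wild-type cells).

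Zyxin (Zyx), which is recruited to adhesions under tension, fell at time 6 and was also lower in PKBa-/- cells. Its signal in PKBa-/- cells was 2283, 2209.8, 2289 and 2002 at time 0, 1075, 987, 976 and 1022 at time 6 and 1140.2, 1247, 1050.0 and 1098 at time 24. Wild-type cells read 4344, 3986, 2918 and 3291 at time 0, 2022, 1788, 1859.7 and 1659.8 at time 6 and 2763, 2276, 2491 and 2423 at time 24. PKBa-/- arrays lay below all wild-type arrays of the same time, and in both genotypes the time 6 arrays lay below those of time 0. The averaged difference was -0.78 ± 0.064 (SE, adjusted p = 8.68e-07) and the difference at time 24 -1.11 ± 0.13 (SE, adjusted p = 7.08e-05). A dimmer zyxin probe set had the opposite sign in the averaged comparison, the only one of 25 further probe sets of the called genes to do so. For the calls at time 24 against time 0 in wild-type cells, 14 of 17 further probe sets had the sign of the one used. Those of Pdlim7, Actb and Zyx did not. In PKBa-/- cells 10 of 11 had it, and a Lasp1 probe set did not. On the mean of the zyxin probe sets the difference at time 0 was -0.30 and did not pass (adjusted p = 0.096). Lasp1, a LIM and SH3 protein of adhesions, moved the other way, 0.62 ± 0.069 (SE, adjusted p = 1.49e-05) on average, with 1401, 1429.9, 1233 and 1092 in PKBa-/- cells and 713, 825, 756 and 732 in wild-type cells at time 48.

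Vinculin (Vcl), which anchors talin to filaments, did not follow the other adhesion genes. It had 2699.6, 2801, 2834 and 2435 in PKBa-/- cells at time 0, 3893 and 4183 at time 2, 2203, 2209.8, 1556 and 1746 at time 6 and 1087, 1256, 1299 and 1359 at time 48. Wild-type cells had 2382, 2362, 1808 and 1807 at time 0, 3054 and 3303 at time 2, 2629, 2457, 1659 and 1634 at time 6 and 1874, 1841, 1256 and 1309 at time 48. Both arrays of time 2 were above all arrays of time 0 in each genotype, although the difference did not pass (adjusted p = 0.426 in PKBa-/- cells and 0.35 in wild-type cells). Of all tested genes, 20.3% in PKBa-/- cells and 15.3% in wild-type cells had time 2 wholly above time 0, and 24.7% and 29.9% wholly below. The difference of Vcl from time 0 passed in PKBa-/- cells at time 48 (-1.09 ± 0.23 SE, adjusted p = 0.0113), where the wild-type change was -0.42 (adjusted p = 0.334). The difference of these changes was -0.67 and did not pass (adjusted p = 0.463; 0.0258 with the pair within genotype as a replicate block).

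Of the 4 genes of filament assembly and turnover, Arpc5 and Capzb fell with time, and Cfl1 and Pfn1 did not pass at any time against time 0. Arpc5, a subunit of the Arp2/3 complex that nucleates branched filaments, was 0.31 ± 0.053 (SE, adjusted p = 0.000434) higher in PKBa-/- cells. This difference did not pass with 1 mean per pair over times (adjusted p = 0.231). Arpc5 fell at time 6 with log2 differences of -0.36 in PKBa-/- cells and -0.56 in wild-type cells. Its PKBa-/- calls at times 6 and 48 rested on PKBa-/- time 0 replicate 2 (adjusted p = 0.0626 and 0.054 without it), the one at time 24 was lost without any one of 12 arrays, and the wild-type call at time 48 rested on wild-type time 48 replicate 4 (0.101). Capzb, the beta subunit of capping protein, dipped at time 6 with log2 differences of -0.47 ± 0.13 (SE, adjusted p = 0.0206) in PKBa-/- cells and -0.52 ± 0.13 (SE, adjusted p = 0.0185) in wild-type cells. Profilin (Pfn1) was 0.16 higher in PKBa-/- cells at an adjusted p of 0.0488, a call lost without any one of 19 arrays. Cofilin (Cfl1) passed in no comparison, with an averaged difference of 0.12 ± 0.10 (SE, adjusted p = 0.367).

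Vimentin (Vim), the intermediate filament protein of fibroblasts, was higher in PKBa-/- cells at times 24 and 48. It had 9187, 7924, 9725 and 9382 in PKBa-/- cells and 8212, 8209, 7291 and 7439 in wild-type cells at time 0. At time 48 it had 7533, 7078, 7784 and 7987 in PKBa-/- cells and 3682, 3857, 2748 and 2385 in wild-type cells. At time 48 all PKBa-/- arrays were above all wild-type arrays, by 1.28 ± 0.23 (SE, adjusted p = 0.00149). From time 0 to time 48 the log2 difference was -0.25 ± 0.23 (SE, adjusted p = 0.627) in PKBa-/- cells and -1.31 ± 0.23 (SE, adjusted p = 0.00525) in wild-type cells. The difference of these changes was 1.06 ± 0.32 (SE, adjusted p = 0.171) and did not pass, but passed with the pair within genotype as a replicate block (adjusted p = 0.00118).

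Taking the genotypes across the whole course, 16 of the 32 genes were higher and 3 lower in PKBa-/- cells, where 26.5% of all tested genes were higher and 20.9% lower. The mesothelium marker sum (365 to 489 on PKBa-/- arrays and 6479 to 10593 on wild-type arrays) separated the same groups. So did the adipocyte and endothelium sums, mainly through Lpl and Kdr. The part of these sums in the differences was not tested. The higher ones were Myl9, Acta2, Myh9, Cnn2, Lasp1, Vim, Cald1, Vasp, Tpm4, Flna, Arpc5, Cnn3, Tpm1, Myl6, Actg1 and Pfn1, and the lower ones Mylk, Zyx and Smtn. The median log2 difference was 0.20 for the 32 genes and 0.03 for all tested genes. By role, 2 of 3 actins were higher, as were 6 of 13 filament-binding genes, 3 of 4 myosin genes, 2 of 7 adhesion genes and 2 of 4 assembly genes. The 3 myosin genes included Myl6, read on its dim probe set. Arrays of one pair deviated together over times, so the averaged comparison was also made on 1 mean per pair over times 0, 6, 24 and 48, 2 against 2. Then 8 genes were higher (Acta2, Myl9, Myh9, Cnn2, Vim, Lasp1, Cald1 and Tpm4) and 3 lower (Mylk, Zyx and Smtn), against 8.2% and 9.47% of all tested genes. The other genes called above did not pass there. They were Vasp (adjusted p = 0.151), Flna (0.144), Arpc5 (0.231), Cnn3 (0.0978), Tpm1 (0.157), Myl6 (0.346), Actg1 (0.217) and Pfn1 (0.442).

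**Figure D4:**
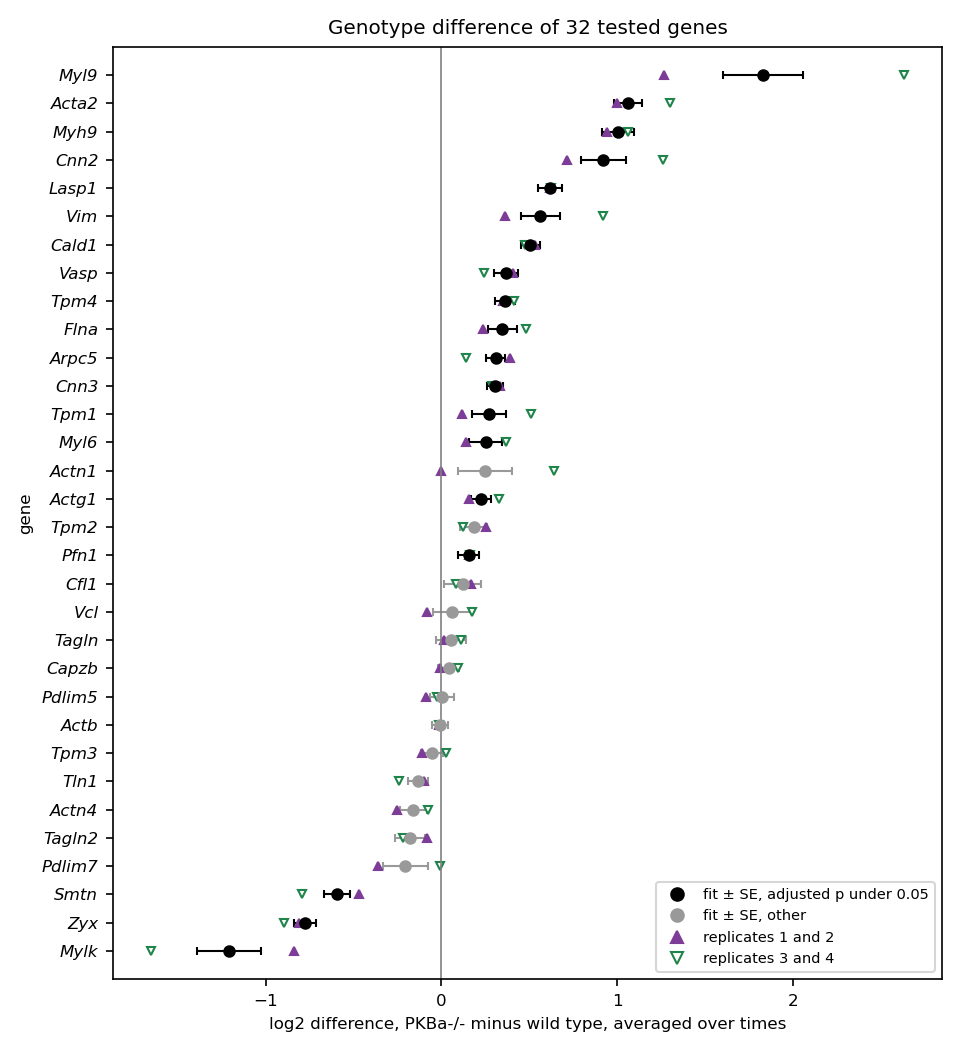
Log2 difference between PKBa-/- and wild-type cells averaged over times for the 32 tested genes (circles with SE; black where the adjusted p was under 0.05), with the difference within replicates 1 and 2 (filled triangles) and within replicates 3 and 4 (open triangles). Myl9 (1.83), Acta2 (1.06) and Myh9 (1.00) lie furthest right and Mylk (-1.21) furthest left, and both pairs have the same sign for 28 of the 32 genes. Values of replicates 3 and 4 leave out time 2, which these replicates lack. No share of same signs was taken over all tested genes.

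The genotypes were also compared at each time. At time 0, 5 genes were higher (Myl9, Myh9, Lasp1, Acta2 and Tpm4) and 4 lower (Mylk, Smtn, Tagln2 and Zyx) in PKBa-/- cells, against 6.48% and 8.34% of all tested genes. At time 2, where the single pair of each genotype took its spread from the other groups, Myh9 and Arpc5 were called higher and none lower, against 2.97% and 2.81%. At time 6, 7 were higher and 2 lower, against 8.51% and 8.02%. At time 24, 11 were higher and 2 lower, against 9.79% and 10.7%, and the median was 0.29, with 0.01 for all tested genes. At time 48, 8 were higher and 2 lower, against 12.4% and 10.8%. The weakest of these calls were those of Tpm4 at times 0 and 48, Arpc5 at time 2, Vasp at time 6 and Flna at time 24, each lost without at least 1 array. Tpm4 was lost without any one of 3 arrays at time 0 and 19 at time 48, and Arpc5 without any one of 9. Vasp was lost without PKBa-/- time 48 replicate 4 (adjusted p = 0.0521), and Flna without PKBa-/- time 24 replicate 2 or wild-type time 24 replicate 4 (adjusted p up to 0.0552).

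Whether the changes with time differed between genotypes was tested gene by gene. No gene of the 32 passed at time 2, 6, 24 or 48, where 0.242%, 0.551%, 0.726% and 1.14% of all tested genes did; unadjusted p-values were under 0.05 for 2, 3, 9 and 7 genes. The fit with arrays as replicates called 1, 4, 9 and 10, against 2.21%, 8.81%, 8.24% and 14.3% of all tested genes. With the pair within each genotype as a replicate block, a fit chosen after seeing the data, 0, 5, 7 and 7 genes passed at times 2, 6, 24 and 48, against 1.04%, 6.67%, 6.02% and 11.2% of all tested genes. Those at time 48 included Tagln2 (adjusted p = 0.000785), Vim (0.00118), Acta2 (0.00423) and Vcl (0.0258). The difference in the number of falling genes between the genotypes at time 24 was not itself tested. With no limit on signal, the changes to time 24 also passed for Actg2 (-1.53 ± 0.14 SE, adjusted p = 0.00153) and Cnn1 (1.59 ± 0.19 SE, adjusted p = 0.00611), against 0.42% of genes called. However, wild-type Actg2 and PKBa-/- Cnn1 were below the limit at all times, where a fall is poorly measured and its size depends on the added constant. Both genes were closer between the genotypes at time 24 than at time 0.

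Genes around these pathways were counted against the 26.5% of all tested genes that were higher and the 20.9% that were lower. Of 11 tested SRF regulators, 4 were higher and 2 lower in PKBa-/- cells: Srf itself was 0.75 ± 0.063 (SE, adjusted p = 9.74e-07), its LIM cofactor Fhl2 0.57 ± 0.087 (SE, adjusted p = 0.000187), and its actin-sensing coactivator Mrtfa -0.50 ± 0.065 (SE, adjusted p = 4.76e-05). Of 16 SRF target genes outside the list, 4 were higher and 7 lower. The LIM-protein genes Crip1 (-3.19), Crip2 (-1.48) and Fhl1 (-1.51) were lower and Thbs1, which encodes thrombospondin, higher (1.00). Of 27 further focal adhesion genes 8 were higher and 5 lower, with the integrin subunit gene Itga3 at -0.92, Tes at -0.87 and parvin (Parva) at 0.71. Of 31 further genes of actin turnover 7 were higher and 10 lower, with Enah, a Vasp relative, at 1.095, the monomer-binding Tmsb4x at -0.56 and muscle-type cofilin (Cfl2) at -0.76. The adjusted p of each gene named here was at most 0.000187. Among 16 tubulin, lamin and other cytoskeletal genes 5 were higher and 4 lower, with lamin A (Lmna) at 1.14 ± 0.12 (SE, adjusted p = 6.71e-06). The comparison of 2 means against 2 was not read for the genes of these lists.

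Some genes of the further lists also fell with time. At time 6, 10 of 27 focal adhesion genes were lower than at time 0 in PKBa-/- cells and 11 of 27 in wild-type cells, with 1 and 2 higher. Of the 16 SRF targets 8 were lower in PKBa-/- cells and 7 in wild-type cells, with 2 and 1 higher. Of the 31 actin turnover genes 9 were lower in PKBa-/- cells and 6 in wild-type cells, with none higher, and of the 11 SRF regulators 3 and 5, with 0 and 1 higher. Of the 16 other cytoskeletal genes 3 and 0 were lower, with 2 and 1 higher. The background shares are those given above for time 6 (9.78% lower in PKBa-/- cells and 7.69% in wild-type cells). At time 24 Fhl2 was lower in both genotypes, with log2 differences of -0.81 ± 0.18 (SE, adjusted p = 0.0185) in PKBa-/- cells and -0.95 ± 0.18 (SE, adjusted p = 0.00862) in wild-type cells. The filamin-binding Fblim1 was lower too, with -0.94 ± 0.15 (SE, adjusted p = 0.00375) in PKBa-/- cells and -1.03 ± 0.15 (SE, adjusted p = 0.00324) in wild-type cells. Srf had a log2 difference of -0.30 ± 0.13 (SE, adjusted p = 0.209) in PKBa-/- cells, which did not pass, and fell in wild-type cells (-0.66 ± 0.13 SE, adjusted p = 0.0107). A few of these genes did differ in their change between genotypes at time 24. The log2 difference of Fhl1, a LIM protein of muscle, from time 0 was -2.05 in PKBa-/- cells and 0.78 in wild-type cells (adjusted p of the difference 0.000785). For Crip1 it was -1.06 in PKBa-/- cells and 0.90 in wild-type cells (0.000785), for the integrin gene Itga6 1.27 in PKBa-/- cells and -0.30 in wild-type cells (0.0286), and for the filament-bundling gene Fscn1 -0.13 in PKBa-/- cells and -0.92 in wild-type cells (0.0286).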

How the data were processed

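Total RNA was measured on 36 Affymetrix arrays, 1 per sample. The deposited table held linear intensity values per probe set; no source used here records which summary or normalization the authors applied to these intensities. Probe sets were named through the platform annotation of GEO: of 22690, 20380 named 1 gene and were no controls, 691 named several genes and 1555 none. Values were used as log2(signal + 32) on the brightest probe set naming a gene alone. The 40% dimmest of 12393 genes were left out by their mean log2(signal + 32), at a limit that corresponds to a signal of 123. Differences and fold changes are on this scale. Replicates 1 and 2, and 3 and 4, were averaged first. limma 3.58.1 in R 4.3.3 then fitted 10 group means (8 residual degrees of freedom), with two-sided tests and Benjamini-Hochberg adjustment over 7436 genes within each comparison; the steps were tested on simulated data. The number of arrays limits the precision.

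Alternatives were arrays as replicates, random and fixed pair blocks, each pair alone, offsets of 8 and 128, no limit on signal, a limit leaving out 60%, the mean of probe sets, quantile normalization, an intensity trend, fits on the compared groups alone, and leaving out each array. The block by pair within genotype and the comparison of 2 means against 2 were chosen after seeing the data. The text names all listed genes, and up to 4 genes per further list by the smallest adjusted p in fixed comparisons. Genes and lists were chosen with earlier results of these data known. The result of 1 further list is not reported here.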

Additional observations from a re-analysis of the deposited data

Results flagged for a closer look

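On 7 of 256 groups of 4 arrays a gene of the list had 1 array far from the other 3 relative to the range of the group. For 4 independent values the rule flags about 1 in 20, or 12.8 groups. Arrays of a pair resembled each other and the genes share arrays, so 7 cannot be judged against that number. Tpm1 read 6279 on PKBa-/- time 0 replicate 4, with the other 3 arrays at 6072 to 6098, and Cald1 read 3491 on PKBa-/- time 6 replicate 3, with the others at 3943 to 4016. Flna read 2590.0 on PKBa-/- time 0 replicate 1 (others 2350.2 to 2369) and 1995 on PKBa-/- time 24 replicate 2 (others 1788 to 1806). Among wild-type arrays, Tln1 read 1584 on time 0 replicate 3 (others 1830.4 to 1867), Capzb 1853 on the same array (others 1936 to 1948), and Cfl1 3240.0 on time 48 replicate 4 (others 4533 to 4857). The change of Acta2 over time differed between the genotypes in the F test (adjusted p = 0.0429), with the limits given above.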

How the results depend on the processing

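Directions held under every alternative for the 139 gene calls of the report except those of Actb in wild-type cells at times 6 and 24, which became 0.053 (adjusted p = 0.872) and 0.010 (adjusted p = 0.981) on the mean of its probe sets. The unit of replication moved the counts of called genes most. All counts below are of the 32 listed genes, and only those over 1.5 times away from the reported ones are given. Most are given without the share of all tested genes, so they describe the settings and are not results about the listed genes. Leaving out the dimmest 60% and a larger offset on the signal moved no count that far. Arrays as replicates gave 16, 11, 15 and 21 between genotypes at times 0, 2, 6 and 48, 3, 20, 21 and 23 against time 0 in PKBa-/- cells at times 2, 6, 24 and 48, 4, 27 and 27 against time 0 in wild-type cells at times 2, 24 and 48, 1 and 2 for time 48 against time 24 in PKBa-/- and wild-type cells, 1, 4, 9 and 10 for the difference of the changes at times 2, 6, 24 and 48, and 13 in the F test. Of all tested genes this fit called 41.3%, 23.5%, 39.5% and 46.9% between genotypes at times 0, 2, 6 and 48. Against time 0 it called 15.3%, 40.4%, 26.5% and 29.3% in PKBa-/- cells at times 2, 6, 24 and 48. In wild-type cells it called 17.9%, 27.1% and 28.6% at times 2, 24 and 48. With the pair as a random block there were 6 between genotypes at time 2, 17, 13 and 18 against time 0 in PKBa-/- cells at times 6, 24 and 48, 1 for time 48 against time 24 in wild-type cells, 3 and 4 for the difference of the changes at times 24 and 48, and 5 in the F test. Replicates 1 and 2 alone gave 16, 18, 21, 24 and 24 between genotypes at times 0, 2, 6, 24 and 48, 6, 20, 21 and 27 against time 0 in PKBa-/- cells at times 2, 6, 24 and 48, 9, 29, 29 and 27 against time 0 in wild-type cells at times 2, 6, 24 and 48, 11 and 7 for time 48 against time 24 in PKBa-/- and wild-type cells, 6, 13, 15 and 12 for the difference of the changes at times 2, 6, 24 and 48, and 23 in the F test. Replicates 3 and 4 alone, which have no time 2, gave 18, 16, 20 and 19 between genotypes at times 0, 6, 24 and 48, 23, 20 and 23 against time 0 in PKBa-/- cells at times 6, 24 and 48, 27 and 26 against time 0 in wild-type cells at times 24 and 48, 1 and 5 for time 48 against time 24 in PKBa-/- and wild-type cells, 5, 11 and 12 for the difference of the changes at times 6, 24 and 48, and 16 in the F test. Fits of the compared groups alone gave 15, 18 and 17 between genotypes at times 0, 2 and 48, 4, 22, 19 and 24 against time 0 in PKBa-/- cells at times 2, 6, 24 and 48, 2, 26 and 20 against time 0 in wild-type cells at times 2, 24 and 48, 1 for time 48 against time 24 in PKBa-/- cells, and 1, 3, 8 and 8 for the difference of the changes at times 2, 6, 24 and 48. The comparison of 2 means against 2 gave 11 genes between genotypes, where 17.7% of all tested genes were called. For these counts fewer or more units enter the fit; the cause was not tested further.

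Same-numbered replicates did not all deviate together: residual correlations were 0.0329 to 0.719 within a genotype and -0.217 to 0.441 between genotypes, so the numbers were not taken as pairing the samples. The replicate number as a replicate block on arrays gave 19, 13, 17, 23 and 24 between genotypes at times 0, 2, 6, 24 and 48, 4, 22, 21 and 24 against time 0 in PKBa-/- cells at times 2, 6, 24 and 48, 7, 29, 27 and 27 against time 0 in wild-type cells at times 2, 6, 24 and 48, 2 and 3 for time 48 against time 24 in PKBa-/- and wild-type cells, 3, 10, 11 and 10 for the difference of the changes at times 2, 6, 24 and 48, and 20 in the F test. The pair as a replicate block on pair averages gave 6 between genotypes at time 2, 17, 16 and 21 against time 0 in PKBa-/- cells at times 6, 24 and 48, 21 against time 0 in wild-type cells at time 48, 2 and 2 for the difference of the changes at times 24 and 48, and 3 in the F test. The pair within genotype as a replicate block gave 2, 21, 18 and 22 against time 0 in PKBa-/- cells at times 2, 6, 24 and 48, 27 and 27 against time 0 in wild-type cells at times 24 and 48, 2 for time 48 against time 24 in wild-type cells, 5, 7 and 7 for the difference of the changes at times 6, 24 and 48, and 11 in the F test. Of all tested genes this block called 10.1%, 37%, 21.9% and 25.4% against time 0 in PKBa-/- cells at times 2, 6, 24 and 48. In wild-type cells it called 22.1% and 23.5% at times 24 and 48, and 0.78% for time 48 against time 24. No gene call of the report was lost under these replicate blocks.

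Of the settings of the values, an offset of 8 gave 1 between genotypes at time 2. No limit on signal, with all 36 genes tested, gave 4 between genotypes at time 2, 3 and 2 for the difference of the changes at times 24 and 48, and 2 in the F test. The mean of probe sets gave 5 between genotypes at time 2, 0 against time 0 in PKBa-/- cells at time 2, 2 and 2 for the difference of the changes at times 24 and 48, and 2 in the F test. Quantile normalization gave 1 between genotypes at time 2, 0 against time 0 in PKBa-/- cells at time 2, 0 against time 0 in wild-type cells at time 2, 1 for the difference of the changes at time 48, and 0 in the F test. An intensity trend gave 1 between genotypes at time 2, and 1 and 1 for the difference of the changes at times 24 and 48. The cause of these moves was not tested.

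Leaving out each array in turn kept 114 of the 139 gene calls whichever array was left out and ended 25 in at least 1 case. Beside those named in the report, these were Myl6 (PKBa-/- time 6 replicate 4, adjusted p = 0.0528 without it) and Lasp1 (PKBa-/- time 0 replicate 3, 0.0531) in PKBa-/- cells at times 6 and 24. In wild-type cells at time 6 they were Tagln2 (PKBa-/- time 24 replicate 4, 0.0553), Myh9 (wild-type time 6 replicate 2, 0.0647), Pdlim5 (wild-type time 48 replicate 3, 0.0510) and Tpm2 (any one of 20 arrays). In wild-type cells at time 24 they were Zyx (time 24 replicate 2 or time 0 replicate 4), Smtn (time 0 replicate 4 or time 48 replicate 3), and Actb, Flna and Pdlim7 (any one of 7, 13 and 5 arrays). The counts ran from 17 to 20 between genotypes over all times, and 8 to 9, 1 to 3, 8 to 10, 12 to 15 and 9 to 11 at times 0, 2, 6, 24 and 48. Against time 0 they were 0 to 1, 10 to 13, 6 to 8 and 11 to 13 in PKBa-/- cells and 0 to 1, 16 to 19, 12 to 17 and 11 to 14 in wild-type cells at times 2, 6, 24 and 48. They were 0 for time 48 against time 24 in both genotypes, 0, 0, 0 to 1 and 0 to 1 for the difference of the changes, and 0 to 1 in the F test. Signal over background limits the 4 dim genes.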
